A study of Mus musculus with 7 samples.

Results

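The IL-1 and IL-18 receptor cluster is a run of 6 receptor genes on mouse chromosome 1, in the order Il1r2, Il1r1, Il1rl2, Il1rl1, Il18r1 and Il18rap. Its open chromatin was examined in splenic Foxp3-expressing regulatory T (Treg) cells with and without the mitochondrial fusion GTPase Opa1. A peak was taken when it touched one of the 6 genes, or lay within 100 kb with that gene as the nearest protein-coding gene. This gave 30 of the 50213 peaks of the table, and the 6 genes are among 14277 protein-coding genes with at least 1 peak. The peaks are numbered 1 to 30 along the chromosome, with coordinates of mm10.

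ATAC-seq, which inserts sequencing tags into open DNA with a transposase, gave the measurements. The mice were chimeras whose CD45.1+ and CD45.2+ bone marrow had been given 1:1, and only the CD45.2+ share differed between groups. In the WT group (4 mice) it was Foxp3Cre, and in the Opa1 KO group (3 mice) Foxp3CreOpa1fl/fl, so both groups carried the Cre driven from Foxp3 and deletion was directed to cells that express Foxp3. Sorted cells were CD45.2+CD45.1-CD4+Foxp3-YFP+, and each chimera gave 1 library.

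Receptors of this family carry the ligand-binding chains for IL-1, IL-33, IL-36 and IL-18, and most pass the signal through Myd88 and Irak kinases to NF-kB. Il1r1 is the signalling receptor of IL-1 and Il1r2 is a decoy that binds IL-1 without signalling. Il1rl2 is the receptor of the IL-36 cytokines, Il1rl1 encodes ST2, the receptor of the tissue alarmin IL-33, and Il18r1 and Il18rap are the paired chains of the IL-18 receptor. In Treg cells ST2 is known as a mark of effector cells in tissues, and Il1r2 as a gene of activated Treg cells.

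Peaks covered a RefSeq transcript start at 4 of the 6 genes, namely Il1r2, Il1rl2, Il18r1 and Il18rap. Their upstream sequences are printed because these are the start sites at which the data show open chromatin. They come from RefSeq (GRCm38.p6, the assembly that mm10 names) and run up to the base before the first listed start, 250 bases each, with Il18r1 shortened to the 133 bases that follow the end of Il1rl1. Letters in capitals mark exact matches to the searched motifs.
Il1r2, chr1:40085843-40086092, plus strand: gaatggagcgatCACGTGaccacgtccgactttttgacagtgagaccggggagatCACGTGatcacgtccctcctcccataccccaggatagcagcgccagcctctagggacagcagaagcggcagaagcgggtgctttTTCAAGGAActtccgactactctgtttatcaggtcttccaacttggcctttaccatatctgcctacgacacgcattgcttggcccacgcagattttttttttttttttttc
Il1rl2, chr1:40324339-40324588, plus strand: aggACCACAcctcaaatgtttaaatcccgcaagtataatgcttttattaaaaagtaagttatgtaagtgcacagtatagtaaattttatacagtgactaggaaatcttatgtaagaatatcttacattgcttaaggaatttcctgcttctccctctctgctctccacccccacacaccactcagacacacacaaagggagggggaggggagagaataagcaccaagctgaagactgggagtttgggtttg
Il18r1, chr1:40465419-40465551, plus strand: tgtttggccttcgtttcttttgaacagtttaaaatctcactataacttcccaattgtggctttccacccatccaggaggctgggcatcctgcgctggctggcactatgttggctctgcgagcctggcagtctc
Il18rap, chr1:40515112-40515361, plus strand: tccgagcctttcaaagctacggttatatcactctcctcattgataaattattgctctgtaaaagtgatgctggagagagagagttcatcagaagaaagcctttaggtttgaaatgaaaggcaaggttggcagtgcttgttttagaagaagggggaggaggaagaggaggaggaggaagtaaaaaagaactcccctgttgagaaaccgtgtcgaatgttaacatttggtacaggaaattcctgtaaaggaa
In all, 10 motifs were searched on both strands, and shares are of 32851 RefSeq upstream sequences of 250 bases. The AP-1 letters TGACTCA occur in 4.46% of these sequences, and the GATA letters AGATAA in 9.99%. The ETS motif was searched as CCGGAAG, present in 6.91%, and the T-box motif as AGGTGTGA, present in 1.12%. For TCF the letters were CTTTGAT, found in 3.21%, and for forkhead factors TGTTTAC, found in 3.17%. The NF-kB motif occurs in 0.356%. The others were the E-box CACGTG, the STAT letters TTCNNNGAA and the RUNX letters TGTGGT. Matches were found for these last 3 only, and none overlapped another. The Il1r2 sequence holds 2 E-boxes, starting 238 and 195 bases before the start, and a STAT match 111 bases before it. E-boxes occur in 6.02% of upstream sequences, and the STAT letters in 7.02%. The Il1rl2 sequence holds a RUNX match on the other strand 247 bases before the start, which lies outside the peak, and 14.0% of upstream sequences hold that motif. No match was found at Il18r1 or Il18rap. The Il1r2 sequence had 14 CpG dinucleotides and that of Il1rl2 had 1, where the median over upstream sequences is 6. Il18rap had 4 CpG, and the shortened Il18r1 sequence had 3, equal to the median over the last 133 bases of all upstream sequences. These matches describe letters only and show no binding.

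The cluster runs from 40084692 to 40551707, about 467 kb, and its peaks were unevenly placed along it. Levels are given as CPM (a library's counts brought to 1 common total, with TMM factors), and as the mean over the 7 libraries where a single level is named. The span held 6.0 peaks per 100 kb against 1.91 for chromosome 1 as a whole. The accessible part lay mainly between Il1rl2 and the start of Il18rap. The longest stretch without a peak, 125192 bp, ran from 40190301 to 40315493 and took in nearly all of Il1r1. The 30 peaks had a median width of 316 bp and a median level of 7.70 CPM, against 9.49 CPM over all peaks. Of the 30, 11 lay above that median of all peaks. The most accessible one, peak 26 within Il18r1, averaged 35.4 CPM, at the 84.3th percentile of all peaks. In the map of the cluster, the taller columns stand at Il18r1, at the start of Il18rap and in the interval between Il1rl2 and Il1rl1.

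**Figure D1:**
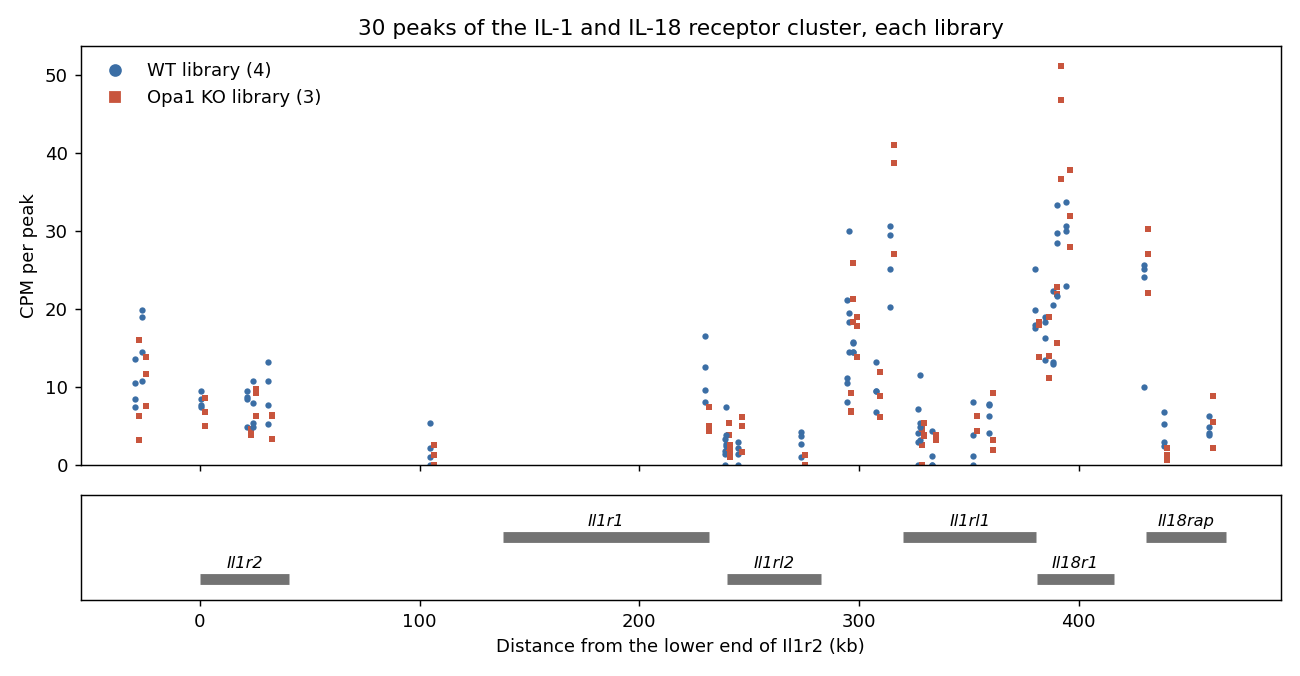
CPM of each of the 30 peaks (vertical axis) against distance in kb from the lower end of Il1r2 (horizontal axis). Circles are the 4 WT and squares the 3 Opa1 KO libraries, moved slightly apart sideways, and grey bars below show the genes. Peaks 26 and 27 of Il18r1 and peak 17 before Il1rl1 are the tallest, with peak 26 between 21.7 and 51.2 CPM. Il1r1 has 1 peak at each side of a long empty stretch.

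The starts of Il1r1 and Il1rl1 had no peak over them. The 2 RefSeq starts of Il1r1, at 40225080 and 40266586, were 34779 and 48907 bp from the nearest peak. Those of Il1rl1, at 40429570 and 40439629, were 7553 and 2110 bp from peak 21 (40437123 to 40437519), which averaged 4.02 CPM and had no count in WT replicate 4. A peak over at least 1 listed start was present for 46.0% of 17491 protein-coding genes. Of the other starts, Il18r1 had 3, at 40465552, 40465621 and 40466006, and peak 23 covered the first 2 of them.

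Summed over all its peaks, Il18r1 (NCBI gene 16182) was the most accessible member and held 35.8% of the summed CPM of the cluster. Per kb of peak its level ran from 54.4 to 78.9 CPM in the 7 libraries with a median of 67.2, above every other member in all 7. Then followed Il18rap (median 34.6 CPM per kb), Il1rl2 (28.1), Il1r2 (27.4), Il1rl1 (26.5) and Il1r1 (16.8). The ranges of each neighbouring pair among these last 5 overlapped, so their order is not resolved. By the plain sum, Il1r1 was at the 17.3th percentile of all genes with a peak and Il18r1 at the 80.8th.

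The comparison of KO with WT asked whether loss of Opa1 altered accessibility at these receptor genes. No member peak passed the threshold. Of the 30 peaks, 21 passed the filter on low counts and were tested, and 9, averaging between 1.75 and 4.02 CPM, were not. The limit that no reads would allow, 3 pairs or 6 counts where each mate counts, equals 1.85 to 4.06 CPM depending on the library, so the means of these 9 lie near it. With no filter on low counts all 30 were tested, and 0 were called. An adjusted p under 0.05 in edgeR's quasi-likelihood test was reached by 0 of the 21, as by 0.0867% of all 38041 tested peaks, (0.0473% higher and 0.0394% lower in KO), and DESeq2 and limma-voom called 0 as well. An unadjusted p under 0.05 was reached by 3 of the 21, where 9.47% of all tested peaks reached it (4.74% higher and 4.73% lower). With edgeR the 3 were peak 26 (higher in KO) and peaks 8 and 13 (lower). DESeq2 gave 2 such peaks, 26 and 8, with an unadjusted p of 0.0573 at peak 13. Of the 3 that limma-voom gave, peak 6 (unadjusted p = 0.0481) stood in place of peak 13 (0.0626). The groups did not overlap at 3 tested peaks, 26, 8 and 4, against 9.36% of all tested peaks (4.85% higher and 4.51% lower). Both counts are too small to be read against these shares. Fold changes were above 0 at 9 and below 0 at 12 of the 21 (above 0 at 49.8% of all tested peaks), from -1.03 to 0.64 on the log2 scale, with a median of -0.15 against -0.001 over all tested peaks. In bulk libraries, fewer cells with an open site and less opening per cell cannot be told apart.

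**Figure D2:**
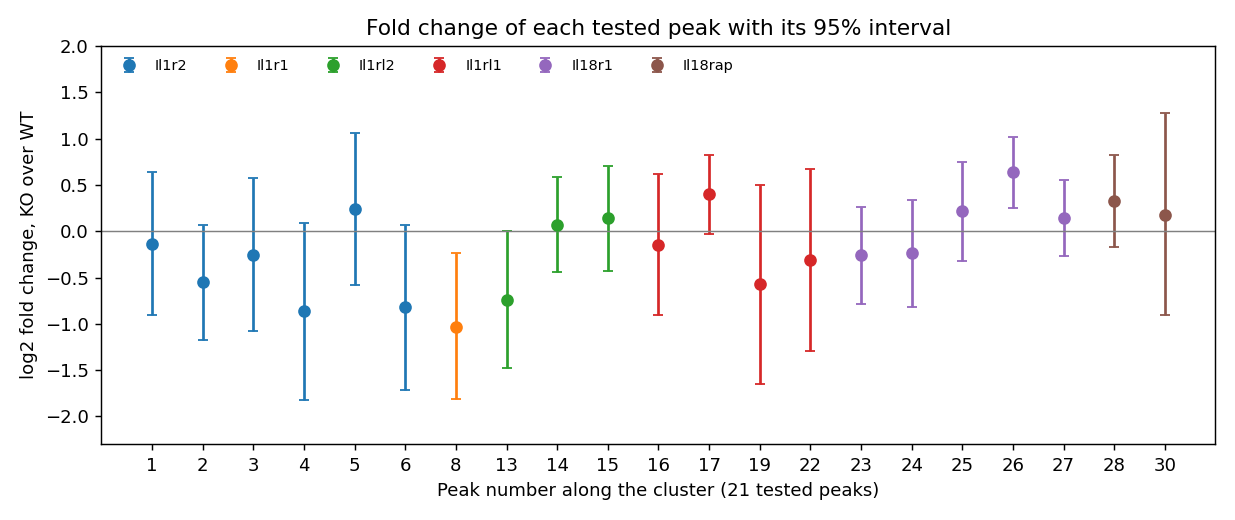
Log2 fold change of KO over WT (vertical axis) for the 21 tested peaks in order along the cluster (horizontal axis, peak number), colored by gene. Bars are 95% intervals from edgeR's fit. The points run from -1.03 at peak 8 to 0.64 at peak 26, and the intervals of most peaks cross 0.

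No member passed an adjusted p of 0.05 by gene sum with edgeR, DESeq2 or limma-voom, against 0.369% of 13270 genes tested with edgeR. An unadjusted p under 0.05 was reached by Il1r2 and Il1r1, both lower in KO, where 11.4% of all genes reached it (5.39% higher and 5.97% lower). Fold changes were above 0 for 3 of the 6, as for 50.0% of all genes. The same pair had groups that did not overlap, as did 9.69% of all genes (4.60% in that direction). The sum over all 30 peaks was 334 ± 30.7 CPM in WT and 335 ± 17.1 CPM in KO (SD, n = 3 each, with WT replicates 2 and 3 averaged as 1 sample), a ratio of 1.01. The difference between these means was smaller than either SD.

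**Figure D3:**
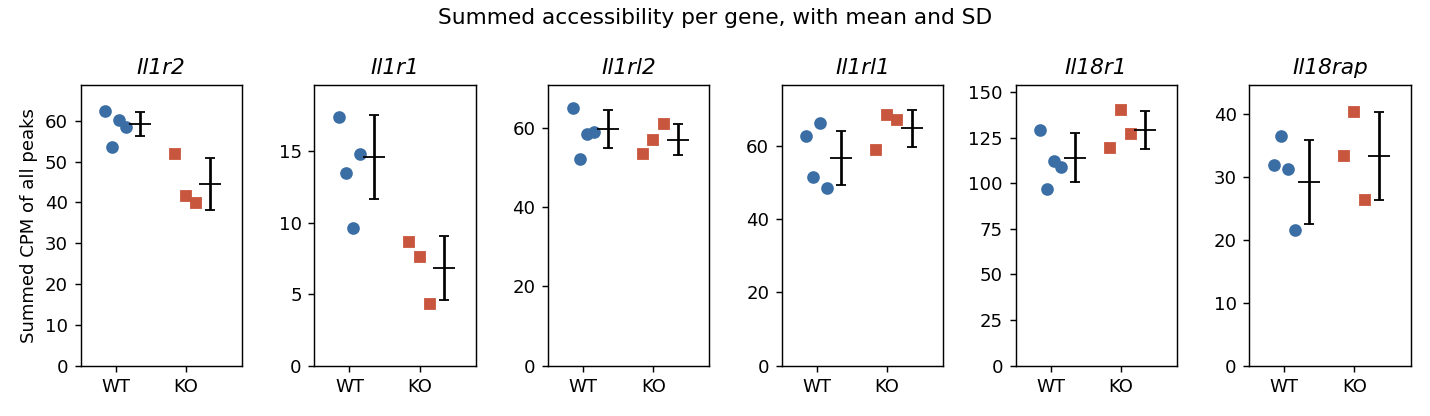
Summed CPM of all peaks of each member (vertical axes, each starting at 0) in WT (circles, 4 libraries) and Opa1 KO (squares, 3 libraries). Black marks are mean and SD with WT replicates 2 and 3 averaged. All KO points lie below all WT points for Il1r2 and Il1r1 alone, where the adjusted p was 0.317 and 0.245.

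At the decoy receptor Il1r2 (NCBI gene 16178, 40084692 to 40125230), 6 peaks summed to 62.5, 53.5, 60.2 and 58.5 CPM in WT replicates 1 to 4. They summed to 51.8, 41.7 and 39.9 CPM in KO replicates 1 to 3. Every KO library was thus below every WT library. The means were 59.3 ± 2.9 and 44.5 ± 6.39 CPM, a log2 fold change of -0.39 (SE 0.16, 95% interval -0.71 to -0.07) that did not pass adjustment (adjusted p = 0.317). Of the 6 peaks, 5 had a fold change below 0 and none was called. The 4 that touch the gene summed to 31.4 ± 4.18 CPM in WT and 24.9 ± 3.89 CPM in KO, with overlap. The other 2 lay below the gene. Without its most accessible peak the groups overlapped (39.5 to 45.8 CPM in WT and 27.8 to 40.1 in KO).

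That most accessible Il1r2 peak, peak 2 (40059139 to 40059477), lay 25215 bp below the gene. Its WT values were 19.9, 10.8, 14.5 and 19.0 CPM and its KO values 11.7, 13.9 and 7.55 CPM. The KO values were low but overlapped with those of WT replicate 2 (log2 fold change -0.55, SE 0.31, adjusted p = 0.592). The peak with the smallest p of the gene was peak 6 (40116467 to 40116785), within the gene. It had 7.75, 10.8, 13.2 and 5.27 CPM in WT and 3.39, 6.32 and 6.47 CPM in KO, again with overlap (log2 fold change -0.82, SE 0.45, adjusted p = 0.570). Peak 4 (40106655 to 40106995), named here after its values were seen, did not overlap between groups, with 4.82 to 9.48 CPM in WT and 3.79 to 4.62 CPM in KO (adjusted p = 0.574). The peak over the start, peak 3 (40085775 to 40086106), whose upstream bases hold the 2 E-boxes, had 7.38 to 9.48 CPM in WT and 5.06 to 8.63 CPM in KO (log2 fold change -0.26, SE 0.41, adjusted p = 0.900).

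Il1r1 (NCBI gene 16177, 40222480 to 40316201) had the lowest sum of the cluster. Its single tested peak, peak 8 (40315493 to 40315865), ended 336 bp inside the upper end of the gene. The WT values were 16.5, 8.12, 9.63 and 12.6 CPM, and the KO values 7.39, 5.06 and 4.31 CPM. All KO values were below all WT values. The means were 12.7 ± 3.80 and 5.59 ± 1.61 CPM, and the log2 fold change of -1.03 (SE 0.39, 95% interval -1.81 to -0.24) was the lowest in the cluster but not called (adjusted p = 0.364). The raw counts behind it were small, from 8 to 34 per library. This peak was 8724 bp from the start of Il1rl2, the nearest listed start, so its assignment to Il1r1 rests on the gene body. The other Il1r1 peak, peak 7, averaged 1.75 CPM and was not tested. The gene sum had a log2 fold change of -0.99 (SE 0.37, 95% interval -1.73 to -0.26, adjusted p = 0.245).

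Il1rl2 (NCBI gene 107527, 40324589 to 40367555), the IL-36 receptor, had 4 faint peaks within the gene and 3 stronger ones above it. The 4 within averaged 2.01 to 3.12 CPM and none was tested, peak 9 over the start included. The sum of the 7 was 64.9, 52.1, 58.4 and 59.0 CPM in WT and 53.3, 56.9 and 60.9 CPM in KO. The groups overlapped (log2 fold change -0.06, SE 0.15, 95% interval -0.36 to 0.24, adjusted p = 0.942).

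The 3 peaks above Il1rl2 and 2 more before Il1rl1 form a group of 5 in the interval between both genes. Together they had 71.8 to 93.9 CPM in WT and 75.2 to 104 CPM in KO, with overlap. Of these, peak 13 (40380184 to 40380482) had 11.1, 8.12, 21.1 and 10.5 CPM in WT and 6.78, 6.95 and 9.17 CPM in KO. The KO values were low, but KO replicate 3 was above WT replicate 2, and WT replicate 3 stood above the other WT libraries (log2 fold change -0.74, SE 0.37, adjusted p = 0.522). Without WT replicate 3 the log2 fold change was -0.403, and its unadjusted p of 0.325 no longer counted among the 3. Peak 14 (40380966 to 40381345), the next one above, had 30.0, 18.3, 14.5 and 19.5 CPM in WT and 21.3, 18.3 and 25.9 CPM in KO. It showed no such difference (log2 fold change 0.07, SE 0.25, 95% interval -0.44 to 0.58, adjusted p = 0.965).

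For Il1rl1 (NCBI gene 17082, 40404864 to 40465418), which encodes ST2, the most accessible site was peak 17 (40399465 to 40400091), 4773 bp below the gene as RefSeq bounds it and 29479 bp from its nearest listed start. At 626 bp it was the widest peak of the cluster. Its WT values were 25.2, 20.3, 30.7 and 29.5 CPM and its KO values 27.1, 41.1 and 38.8 CPM. KO replicates 2 and 3 were above all WT libraries, while KO replicate 1, the deepest library, lay among them. The means were 26.7 ± 2.41 and 35.7 ± 7.50 CPM, with a log2 fold change of 0.40 (SE 0.21, 95% interval -0.03 to 0.82, adjusted p = 0.563). The WT SD understates the spread of single libraries here, since the lowest and highest WT values are those of replicates 2 and 3.

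The 5 peaks within Il1rl1 were faint, from 2.33 to 5.76 CPM. Their sum was 30.5, 21.7, 22.3 and 9.48 CPM in WT and 25.6, 18.3 and 16.2 CPM in KO, with WT replicate 4 the lowest and WT replicate 1 the highest. The sum over all 7 peaks was 62.5, 51.4, 66.2 and 48.5 CPM in WT and 58.8, 68.3 and 66.9 CPM in KO. The groups overlapped (log2 fold change 0.15, SE 0.15, 95% interval -0.14 to 0.45, adjusted p = 0.779). Without peak 17 the sums were 29.9 ± 9.64 and 29.0 ± 2.42 CPM.

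Il18r1 (NCBI gene 16182, 40465552 to 40500854), the ligand-binding chain of the IL-18 receptor, had 5 peaks, all touching the gene. Peak 26 (40475668 to 40476082), 10116 bp past its lower end, had the highest level and the smallest p of the cluster. It had 33.4, 29.8, 21.7 and 28.5 CPM in WT and 36.7, 46.8 and 51.2 CPM in KO. Every KO library was above every WT library. The means were 29.2 ± 3.90 and 44.9 ± 7.47 CPM, a log2 fold change of 0.64 (SE 0.19, 95% interval 0.25 to 1.02) with an adjusted p of 0.236 over all peaks. WT replicates 2 and 3, averaged, had 29.8 and 21.7 CPM. The exons and introns of the gene are not in the gene table used, so the site is placed only within the gene.

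The neighbouring Il18r1 sites did not share this difference in their values, though differences between peaks were not tested. Peak 25, the next one below, had 12.9 to 22.3 CPM in WT and 15.6 to 22.8 in KO (log2 fold change 0.22, SE 0.27). Peak 27 had 23.0 to 33.7 and 28 to 37.9 CPM (0.14, SE 0.21). Peak 23 over the start had 17.6 to 25.2 and 13.9 to 18.3 CPM (-0.26, SE 0.26), and peak 24 had 13.5 to 19.0 and 11.1 to 19.0 CPM (-0.24, SE 0.29). Without peak 26 the gene summed to 85.1 ± 9.45 CPM in WT and 84.2 ± 8.81 CPM in KO. With it, the sum was 129, 96.8, 112 and 109 CPM in WT and 119.5, 140.3 and 127 CPM in KO, which overlap (log2 fold change 0.18, SE 0.11, 95% interval -0.04 to 0.40, adjusted p = 0.565).

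Il18rap (NCBI gene 16174, 40515362 to 40551707), the signalling chain of the IL-18 receptor, had its main peak over the start. Peak 28 (40515138 to 40515537) had 25.2, 25.7, 24.1 and 10.0 CPM in WT and 27.1, 30.3 and 22.1 CPM in KO. WT replicate 4 stood apart as the lowest, and the other WT libraries lay within the KO range (log2 fold change 0.33, SE 0.25, 95% interval -0.17 to 0.82, adjusted p = 0.730). Leaving out WT replicate 4 brought the log2 fold change to 0.08. Peak 30 averaged 5.09 CPM with a log2 fold change of 0.18 (SE 0.55). Peak 29 (40524071 to 40524313), too faint to be tested, had 2.91, 6.77, 2.41 and 5.27 CPM in WT and 0.616, 1.26 and 2.16 CPM in KO. Most of these values are near that limit of 6 counts. The gene sum was 32, 36.6, 31.3 and 21.6 CPM in WT and 33.3, 40.4 and 26.4 CPM in KO (log2 fold change 0.13, SE 0.21, 95% interval -0.27 to 0.53, adjusted p = 0.889).

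**Figure D4:**
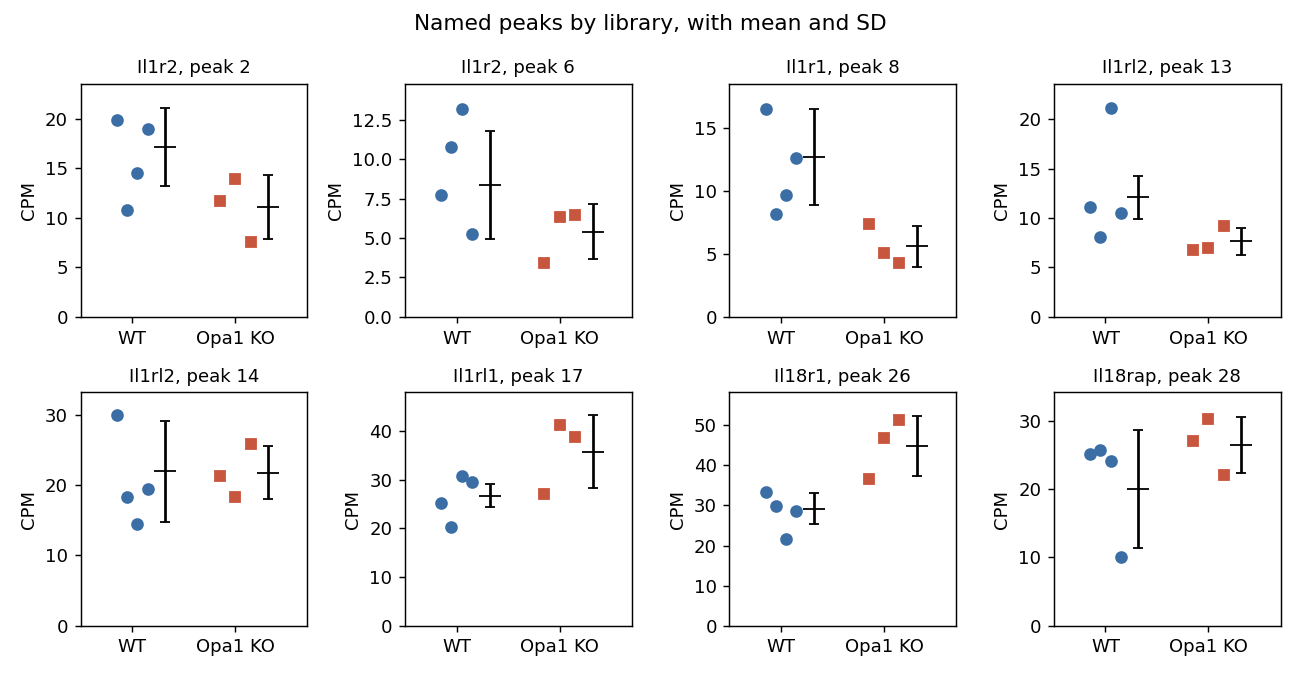
CPM of 8 member peaks (vertical axes, each starting at 0), the most accessible peak and the peak with the smallest p of each gene, in WT (circles) and Opa1 KO (squares), with black marks for mean and SD. The groups are apart at peak 8 (KO 4.31 to 7.39, WT 8.12 to 16.5) and peak 26 (KO 36.7 to 51.2, WT 21.7 to 33.4) and overlap at the other 6.

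The genes beside the cluster were compared as neighbours in the same stretch of chromosome. Below it, Map4k4, a kinase gene with 23 peaks, summed to 285 ± 21.7 CPM in WT and 305 ± 12.2 CPM in KO (log2 fold change 0.09, SE 0.07, adjusted p = 0.737). The next gene, Gm3646, had 1 peak (log2 fold change 0.05, SE 0.17, adjusted p = 0.967). Above it, Slc9a4, a sodium-proton exchanger, had no assigned peak and Slc9a2, another exchanger, had 1 untested peak of 3.11 CPM. Both sides thus had values that overlapped between groups or too low to test.

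Among the other genes of the pathway, the shared signalling chain Il1rap, which pairs with Il1r1, Il1rl1 and Il1rl2, lies on chromosome 16. Its 4 peaks summed to 104 to 135 CPM in WT and 119 to 137 CPM in KO (log2 fold change 0.09, SE 0.11, 95% interval -0.12 to 0.31, adjusted p = 0.823). Sigirr, an inhibitory receptor of the family, summed to 98.5 to 130 CPM in WT and 97.3 to 112 CPM in KO (-0.10, SE 0.12, adjusted p = 0.837), with its smallest p at a peak within the gene (141092364 to 141092655 on chromosome 7, -0.49, SE 0.23, adjusted p = 0.488). The other receptor genes listed, Il1rapl1 and Il1rapl2, had no assigned peak. No peak of these receptors was called among 4 tested, where 0.0867% of all tested peaks were. These are too few to be read against that share, and only 1 of the 4 Il1rap peaks was tested.

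Ligands and soluble inhibitors had 6 peaks at 6 of 11 genes, where 14277 of 21896 protein-coding genes had a peak, and 2 of the 6 peaks were tested. Il1b, the cytokine bound by Il1r1 and Il1r2, had a single peak 14104 bp from the gene (chromosome 2, 129385268 to 129385750). It had 21.3, 13.5, 22.9 and 17.9 CPM in WT and 9.24, 12.6 and 8.09 CPM in KO. All KO values were below all WT values, but the peak was not called (log2 fold change -0.95, SE 0.31, adjusted p = 0.265).

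Signalling genes behind the receptors had 64 peaks at 16 of 16 genes, and none of 47 tested was called, where 0.0867% of all tested peaks were. Fold changes were above 0 at 21 and below at 26 (above 0 at 49.8% of all tested peaks), with a median of -0.05. An unadjusted p under 0.05 was reached by 2, or 4.26% against 9.47% of all tested peaks. The smallest p was at a peak 17490 bp from Ikbkb, a kinase that activates NF-kB (chromosome 8, 22724079 to 22724457). It had 43.6, 50.1, 55.4 and 35.8 CPM in WT and 56.1, 60.7 and 70.1 CPM in KO (log2 fold change 0.43, SE 0.16, adjusted p = 0.349). The adaptor Myd88 summed to 12.6 to 19.3 CPM in WT and 12.6 to 20.2 CPM in KO (0.02, SE 0.30, adjusted p = 0.994). In the list of ligand processing, 17 peaks lay at 5 of 6 genes and none of 13 tested was called, with 4 above 0 and a median of -0.06. Its smallest p was within Aim2, a DNA sensor (chromosome 1, 173437567 to 173437903), with 27.4 to 39.3 CPM in WT and 41.3 to 49.6 CPM in KO (log2 fold change 0.48, SE 0.18, adjusted p = 0.365).

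A list of 13 genes known from ST2-expressing Treg cells of tissues held the only called peak among these lists, 1 of 82 tested, where 0.0867% of all tested peaks were called. It lay 21414 bp from Bhlhe40, a transcription factor of activated T cells, at 61.0, 69.0, 51.8 and 67.4 CPM in WT and 30.8, 29.1 and 31.3 CPM in KO. Every KO library was below every WT library, and the peak fell by 1.03 on the log2 scale (SE 0.17, adjusted p = 0.000265). The list was drawn up with that peak known, so it is not independent evidence. Of the 82 peaks, 34 were above 0 and 48 below, with a median of -0.11. An unadjusted p under 0.05 was reached by 11 of them, 5 higher and 6 lower in KO, or 13.4% against 9.47% of all tested peaks.

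By gene sum, 1 of the 12 tested genes of that list was called, where 0.369% of all genes were, and 2 were above 0, where 50.0% of all genes were. The called gene was Bhlhe40, whose sum fell by 0.30 on the log2 scale (SE 0.07, adjusted p = 0.0290). The Bhlhe40 sum includes the called peak that was known when the list was drawn up, so this call is not independent evidence either. Its ranges touched, at 328 to 377 CPM in WT and 268 to 329.9 CPM in KO. The 3 others with an unadjusted p under 0.05, named after their values were seen, were Areg, Maf and Prdm1. Areg, a tissue repair factor made by such cells, had 9.69 to 27.1 CPM in WT and 1.26 to 10.8 CPM in KO, with overlap (log2 fold change -1.06, SE 0.35, adjusted p = 0.155). Its sum rests on 2 peaks, and the lowest KO value is below the limit of 6 counts, 1.85 to 4.06 CPM by library. Maf, a transcription factor of effector T cells, had 101 to 118 CPM in WT and 79.0 to 93.7 CPM in KO, which did not overlap (-0.29, SE 0.12, adjusted p = 0.319). Prdm1, which encodes the repressor Blimp-1, was at higher values in KO, with 259 to 289 CPM in WT and 308 to 314 CPM in KO (0.17, SE 0.07, adjusted p = 0.334).

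Across the series, library totals in peaks ran from 1534394 to 3384325 counts, with KO replicate 1 the deepest. The single Opa1 peak had 36.8 ± 1.17 CPM in WT and 35 ± 6.93 CPM in KO and does not check the deletion, since its place relative to the deleted exons is unknown here. Markers of Treg and T cells, all 8 with peaks, summed to 1497 to 1599 CPM in WT and 1526 to 1609 CPM in KO. For myeloid cells 3 of 6 markers had peaks (33.7 to 38.8 and 27.4 to 34.5 CPM), with none at Lyz2, Csf1r or Adgre1. Neutrophils express Il1r2, and for them 2 of 5 had peaks (6.77 to 15.5 and 2.53 to 9.24 CPM), with none at S100a8, Cxcr2 or Csf3r. For mast cells and basophils, which express Il1rl1, 3 of 5 had peaks (129 to 177 and 131 to 149 CPM), with none at Fcer1a or Mcpt8. For NK and CD8 T cells, which express the IL-18 receptor, 4 of 5 had peaks (258 to 304 and 283 to 306 CPM), with none at Ncr1. Each of these ranges overlapped between groups, and the part of such cells in the values of the receptor genes was not tested.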

How the data were processed

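Libraries of sorted splenic Treg cells from 4 WT and 3 Opa1 KO chimeras were compared. The authors deposited whole-number counts per peak, not normalized, over 1 set of 50213 intervals. Per the submitters' processing notes the build was mm10, and the tools named are MACS2 2.1.1, BWA 0.7.16, bedtools 2.25.0, Trimmomatic 0.36, SAMtools 1.9 and Picard 2.9.4. Settings, peak merging and any transposase shift, which could move peak edges by a few bases, are here unknown (not given in the sources used here). Positions are as deposited, with the first base of a chromosome possibly 0 or 1. Of the counts per library, 78.0% to 86.3% were even, as when both mates are counted. The limit of 6 counts covers counting error only, since reads copied by PCR carry no molecular identifier and may repeat a molecule, while the intervals of the fit include the spread between libraries.

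The protein-coding genes came from RefSeq GRCm38.p6 (32471 peaks touched a gene, 14997 lay within 100 kb of the nearest gene end, 2745 had none). A peak that touched several genes was counted for each. Each of the 6 member symbols matched. Of the listed pathway genes, 4 were found under older symbols. Nearness alone says nothing of a site's target gene.

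Genotype was tested in all 7 libraries by edgeR's robust quasi-likelihood fit (edgeR 4.0.16, R 4.3.3) without covariates. Peaks were kept by filterByExpr at a minimum count of 10 and a total of 15, TMM factors ran from 0.985 to 1.01, with Benjamini-Hochberg adjustment over 38041 peaks. Gene sums over all assigned peaks were fitted the same way over 13270 genes. Intervals are 95%, and standard errors come from the fitted coefficient and its F statistic. The common biological coefficient of variation was 0.157. Between WT replicates 2 and 3 the halved counts showed no difference beyond sampling over 36418 peaks (chi-square, p = 0.11; p = 0.038 over the 11332 deepest), and each other pair within a genotype had a smaller p. They were averaged as 1 sample in each mean ± SD, so n = 3 in both groups. The WT SD is thus too small where these libraries lie far apart, while tests kept 7 libraries. The labels number both as separate replicates. Both were also the shallowest WT libraries (1534394 and 1706750 counts), where the chi-square detects least, so it cannot show that they are 1 sample. Each mouse gave 1 library, per the labels. Whether same-numbered libraries of the genotypes are paired is not stated, and their deviations did not correlate (r from -0.012 to 0.011).

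The member genes, gene lists and tests were chosen with earlier results of these data known. Named peaks are the most accessible peak and the one with the smallest p of each gene, and those with an unadjusted p under 0.05. In the pathway lists they are called peaks, or else the one with the smallest p, and the sums of Il1rap, Sigirr and Myd88. The sums of Bhlhe40, Areg, Maf and Prdm1 are given beyond this rule. Alternatives were other scalings, limma-voom (limma 3.58.1), DESeq2 1.42.0, other filters, halved counts, a replicate block, WT replicates 2 and 3 summed, other assignments and each library left out. A list of cell markers is not reported here. Tables and plots used Python 3.11.15, pandas 2.3.3, NumPy 2.4.6 and matplotlib 3.10.9.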

Additional observations from a re-analysis of the deposited data

Results flagged for a closer look

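At the peak over the start of Il18rap (peak 28), WT replicate 4 had 10.0 CPM, while the other WT libraries lay between 24.1 and 25.7 CPM. Its gap to the nearest of them was 0.896 of the WT range, above Dixon's 95% critical value for a set of 4. Of 14 sets of 4 WT values checked in this way (8 peaks and 6 gene sums), this was the only one that stood apart, and chance alone flags about 1 in 20.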

How the results depend on the processing

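No member peak and no member gene sum was called under any alternative run. All 8 named peaks and 6 gene sums kept their direction except those given here. Peak 14 near Il1rl2 ran from -0.067 to 0.323 (log2) with 1 library left out, below 0 without WT replicate 3 or KO replicate 3. The Il1rl2 sum, at -0.06, turned to 0.042 with touching peaks only and 0.049 within 10 kb, and the Il1rl1 sum, at 0.15, to -0.056 with touching peaks only. The Il18rap sum, at 0.13, was -0.014 with the replicate block and ran from -0.012 to 0.262 with 1 library left out, below 0 without WT replicate 4 or KO replicate 2. Peak 26 ranged from 0.528 to 0.789 (adjusted p from 0.187 to 0.608), peak 8 from -1.33 to -0.818 (0.271 to 0.693) and the Il1r2 sum from -0.537 to -0.246 (0.269 to 0.684). With 1 library left out, peak 2, at -0.55, ran from -0.700 (without KO replicate 2) to -0.355 (without KO replicate 3). Peak 6, at -0.82, ran from -1.025 (without WT replicate 4) to -0.508 (without KO replicate 1). Peak 13, at -0.74, ran from -0.900 (without WT replicate 2) to -0.403 (without WT replicate 3). In such runs the Il1rl1 sum came to 0.074 without WT replicate 4 and to 0.231 without WT replicate 3. The Il18r1 sum, at 0.18, ran from 0.117 (without WT replicate 2 or KO replicate 2) to 0.263 (without WT replicate 1). The Il1rl2 sum ranged from -0.115 to -0.006 with 1 library left out. Between 2 and 4 member peaks had an unadjusted p under 0.05, depending on the setting. Peaks 8 and 6 each had 1 alternative in which they were not tested. By the nearest transcript start, an assignment added after the data had been seen, peaks 13 to 15 went to Il1rl1 and peak 8 to Il1rl2, whose sum became -0.434 (adjusted p = 0.557), and Il1r1 was left untested.

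Over the whole table, 33 called peaks became 55 with limma-voom, 60 at mean counts from 20 upward, 89 with halved counts and 13 with the replicate block, and 15 to 43 with 1 library left out (fewest, 15, 16 and 18, when KO replicate 1, KO replicate 3 or WT replicate 1 was dropped). The split of 18 higher and 15 lower became 14 and 23 with total counts alone and 12 and 23 with loess offsets. The 49 genes called by sum became 18 with DESeq2, 23 with the replicate block, 32 with peaks within 10 kb, 25 by the nearest transcript start, and 8 to 65 with 1 library left out (8 and 12 when KO replicate 3 or 1 was dropped, and 24, 27 and 26 for WT replicates 1, 3 and 4). The causes were not tested. Deviations of same-numbered libraries did not correlate (r from -0.012 to 0.011), and whether the numbers pair the libraries remains unknown. Depth limits the fainter sites, since 6 counts equal up to 4.06 CPM.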

Other observations

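Among 6656 protein-coding genes with a mean summed count of at least 100, the genes whose summed CPM followed that of Il18r1 most closely over the 7 libraries were Cand1, a regulator of cullin ubiquitin ligases, Ampd3, an AMP deaminase, and Gm38457. Likeness was the root mean square difference of mean-centred log2(CPM + 1) values, 0.0371, 0.0532 and 0.0582 for these genes against a median of 0.205 over all compared. Cand1 had 186, 148, 173 and 164 CPM in WT and 182, 207 and 197 CPM in KO, lowest in WT replicate 2 and highest in KO replicate 2, as Il18r1 was. For Il1r1, the closest were Akap6, an anchor protein of kinase A (0.263), Timp2, an inhibitor of metalloproteinases (0.311), and Olfr291, an olfactory receptor gene (0.313), against a median of 0.597. Of these, Akap6 was called lower in KO by gene sum (log2 fold change -0.64, adjusted p = 0.00134), with 96.1 to 127 CPM in WT and 55.6 to 81.6 CPM in KO. Akap6 was chosen for its likeness to Il1r1, whose KO sums were all below WT, so its direction follows from that choice. Il1r1 rests on 8 to 36 counts per library, so its pattern is loosely fixed. These are descriptions over 7 libraries, chosen as the closest of many genes.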
